A study of Mus musculus with 8 samples.

Results

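Tph2 and Htr5b are a pair of serotonin genes that were measured by array in brainstem RNA of both mouse strains of the study, DBA/1 and C57BL/6. Tph2 encodes tryptophan hydroxylase 2, the enzyme that limits the rate of serotonin synthesis in neurons. Htr5b encodes the serotonin receptor 5B, a G protein-coupled receptor. They were represented by the probe of Htr5b and every probe of Tph2 in the study's list of differentially expressed mRNAs, which gave 1 probe for each gene, or 2 probes of the 60804 in the value table. That list was made from the same strain comparison on the same arrays, so the strain differences of the 2 probes below describe why they were listed and are not independent evidence.

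Each array, a one-color Agilent design with lncRNA and mRNA probes, received the brainstem RNA of a single mouse, with 4 mice of the DBA/1 strain and 4 of the C57BL/6 strain. All mice were male and 5 weeks old, and C57BL/6 mice served as the control strain. The DBA/1 strain is prone to audiogenic seizures and to the respiratory arrest that can follow them. The study did not test these mice for seizures, took the whole brainstem under isoflurane anesthesia, and gave neither strain any other treatment, so each value averages all nuclei and cell types of the brainstem and describes the strain rather than a seizure.

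Serotonin neurons of the brainstem lie in the raphe nuclei. They take up tryptophan, convert it with TPH2 and a biopterin cofactor, load the product into vesicles, and recover released serotonin through the transporter SLC6A4. Their projections reach the respiratory centers of the medulla and the forebrain, and act through a large family of receptors. In rodents, Htr5b transcripts are known from the dorsal raphe, the inferior olive and the habenula, while Tph2 is largely restricted to serotonin neurons. In whole-tissue RNA, more cells of a type and more RNA per cell cannot be told apart. For Htr5b, the study also reports quantitative PCR in other mice of both strains, with a higher level in the seizure-prone strain. For TPH2, it cites earlier Western blots in which the brainstem protein was lower in that strain. That direction is opposite to the Tph2 RNA difference described below. The arrays do not measure protein, and the reason for the opposite directions was not tested.

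Tph2 lies on chromosome 10 from 115078641 to 115185022 of GRCm38, on the minus strand, and its probe was designed for transcript NM_173391. Htr5b lies on chromosome 1 from 121509758 to 121529312, also on the minus strand, and its probe was designed for NM_010483. Each probe is a single spot of 60 bases on the array. The stretches from base 1 to base 30 of both probes are shown, because every value below rests on these oligonucleotides, together with that of the Slc6a4 probe discussed later. Whether a probe lies in a coding or an untranslated part of its exon was not annotated in the tables used here.
Tph2 probe: gacatctgacaagtctactgtagtgtacat
Htr5b probe: acaggacaatgattctcagcttagaagcgg
Slc6a4 probe: agattttaactatatgtgtgtgagagtttg

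The 8 arrays lay on 1 slide, with the strains in separate rows, so the slide row and the strain cannot be told apart. Each column of the slide held 1 array of each strain. Between 29301 and 36162 probes per array were well above background. C57BL/6 arrays were brighter, with a 75th percentile of the intensity between 67.4 and 109, against 46.9 to 74.7 for DBA/1, and levels below are quantile-normalized unless stated otherwise. The tests covered 33179 probes, each with a signal well above background on 4 or more arrays and a value in each strain. The strains were compared with limma as DBA/1 minus C57BL/6, with Benjamini-Hochberg adjustment over all these probes. Precision is limited by the number of arrays. Tph2 and Htr5b were well above background on all 8 arrays, and neither spot was saturated or an outlier spot on any of them.

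Tph2 was higher in every DBA/1 mouse than in any C57BL/6 mouse. Its normalized signal on the log2 scale was 11.68, 11.53, 11.46 and 11.18 in DBA/1 replicates 1 to 4. In C57BL/6 replicates 1 to 4 it was 9.45, 10.79, 9.59 and 9.43. The DBA/1 mice lay close together, while C57BL/6 replicate 2 stood apart from the other 3 mice of its strain and came within 0.38 of the lowest DBA/1 mouse. DBA/1 mice had a mean of 11.46 ± 0.21 (SD, n = 4), and C57BL/6 mice one of 9.82 ± 0.66 (SD, n = 4). The log2 fold change was 1.64 (standard error 0.29, limma adjusted p = 0.00427), or 3.13-fold. An exact two-sided permutation test of the 4 against 4 values gave p = 0.0286, the smallest that this design allows. Strains that do not overlap, with DBA/1 higher, were found for 4.20% of the 31872 probes that were tested and measured on all arrays.

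Htr5b was also higher in DBA/1 mice on average, but the strains overlapped. Its normalized log2 signal was 7.82, 6.94, 8.34 and 7.87 in DBA/1 replicates 1 to 4. In C57BL/6 replicates 1 to 4 it was 5.72, 7.18, 6.39 and 5.17. C57BL/6 replicate 2, the highest of its strain, lay 0.24 above DBA/1 replicate 2, the lowest of its own, and this pair alone made the overlap. DBA/1 mice had a mean of 7.74 ± 0.58 (SD, n = 4), and C57BL/6 mice one of 6.12 ± 0.87 (SD, n = 4). The log2 fold change was 1.62 (standard error 0.40, limma adjusted p = 0.0364), or 3.08-fold. The exact two-sided permutation test gave p = 0.0571.

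**Figure D1:**
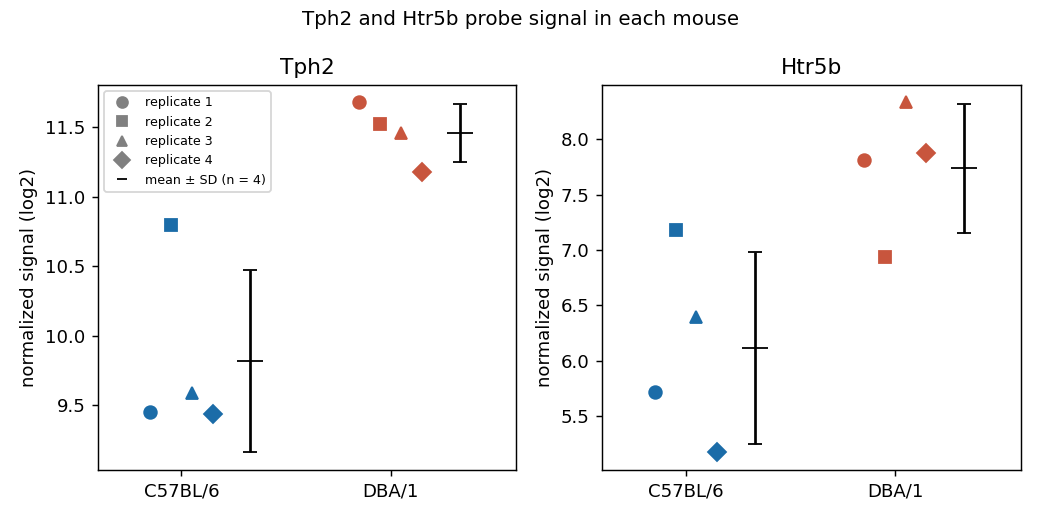
Normalized signal (log2, vertical axis) of the Tph2 and Htr5b probes in each C57BL/6 and DBA/1 mouse, with the marker giving the replicate and the bar the mean ± SD of 4 mice. The Tph2 values of the strains do not overlap, while for Htr5b C57BL/6 replicate 2, at 7.18, lies above DBA/1 replicate 2, at 6.94.

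Both genes passed the study's criterion, at least a 2-fold difference and an unadjusted p under 0.05, which 4.42% of the tested probes met, and 1.06% with the higher signal in DBA/1 mice. Both also met the adjusted criterion, the same fold with an adjusted p under 0.05, which 3.82% of the probes met in either direction and 0.886% with DBA/1 higher. Because the genes came from a list made on this comparison, nothing is read from these shares. Among the 353 probes higher in DBA/1 at the unadjusted criterion, the fold change of Tph2 was the 119th largest and that of Htr5b the 127th.

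The levels were also expressed as ranks within each array. Quantile normalization works from the same ranks, so the order of the mice on this scale is not a separate check. As a percentile of all probes on the same array, Tph2 lay at 97.5, 97.3, 97.2 and 96.7 in DBA/1 replicates 1 to 4. In C57BL/6 replicates 1 to 4 it lay at 92.7, 96.0, 93.1 and 92.6. Tph2 was thus one of the brighter probes in every mouse. The order of the strains and the place of C57BL/6 replicate 2 were the same as on the normalized scale, which the shared ranks bring about. Htr5b lay at 86.1, 80.7, 88.6 and 86.4 in DBA/1 replicates 1 to 4, and at 71.0, 82.3, 76.7 and 65.9 in C57BL/6 replicates 1 to 4. Its overlap between C57BL/6 replicate 2 and DBA/1 replicate 2 was present here for the same reason. By limma over all tested probes, the difference in percentile was 3.56 points for Tph2 (adjusted p = 0.0679) and 11.5 points for Htr5b (adjusted p = 0.162), so neither passed the adjusted threshold on this scale.

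The strain differences were smaller before normalization. On log2 intensities not normalized between arrays, DBA/1 minus C57BL/6 was 1.14 for Tph2 and 1.18 for Htr5b, against 1.64 and 1.62 after it. The exact two-sided permutation test on these intensities gave p = 0.0571 for both genes. For Tph2 the intensities were 2628, 2408, 1483 and 2606 in DBA/1 replicates 1 to 4, and 709, 1563, 827 and 1121 in C57BL/6 replicates 1 to 4. On this scale C57BL/6 replicate 2 exceeded DBA/1 replicate 3, whose array was the dimmest of the 8 with a 75th percentile of 46.9. For Htr5b the intensities were 189, 106, 200.1 and 248 in DBA/1 mice, and 54.0, 135, 96.1 and 53.7 in C57BL/6 mice, in the same order. DBA/1 replicate 2 and C57BL/6 replicate 2 crossed on this scale too. They did not cross when the median signal of the spot was divided by its local background, where the lowest DBA/1 ratio of Htr5b was 9.92 and the highest C57BL/6 ratio 8.80 (exact two-sided permutation p = 0.0286). For Tph2 the lowest DBA/1 ratio was 124 and the highest C57BL/6 ratio 117, with the same exact permutation p. The median signals themselves still crossed. Htr5b was 132 in C57BL/6 replicate 2 and 119 in DBA/1 replicate 2, with local backgrounds of 15 and 12. Tph2 was 1642.5 in C57BL/6 replicate 2 and 1618 in DBA/1 replicate 3, with backgrounds of 14 and 13. Between these mice, only the lower background of the DBA/1 spot separated the ratios. The lowest ratio of all was 46.3 for Tph2 and 4.06 for Htr5b, both in a C57BL/6 mouse.

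C57BL/6 replicate 2 was high for both genes. It exceeded the mean of the other 3 C57BL/6 mice by 1.30 on the log2 scale for Tph2 and by 1.42 for Htr5b. Across the 31872 probes measured on all arrays, the median excess of this mouse was 0.12, only 0.147% of probes had a larger excess than Tph2, and 0.104% a larger one than Htr5b. This mouse held the highest value of its strain for 38.6% of the probes, against 17.6% to 23.1% for the other 3 C57BL/6 mice. Its array also had the lowest 75th percentile of the C57BL/6 arrays, at 67.4, and the most outlier spots of the 8 arrays, at 914. The part of these array values in the excess was not tested.

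The spread among C57BL/6 mice was therefore wide for both genes. Among probes within 0.5 of the mean level of Tph2 on the log2 scale, the median SD of the 4 C57BL/6 mice was 0.26, against 0.66 for Tph2, and 0.623% of these 1123 probes had a larger SD. Among the 4162 probes near the level of Htr5b, the median was 0.22, against 0.87 for Htr5b, and 0.336% had a larger SD. Among DBA/1 mice the genes differed from each other. Tph2 had an SD of 0.21, which 69.8% of probes of its level exceeded, while Htr5b had an SD of 0.58, which 3.44% exceeded. Without C57BL/6 replicate 2, the SD of the remaining 3 C57BL/6 mice fell to 0.08 for Tph2 and to 0.61 for Htr5b, so a single mouse made the C57BL/6 spread of Tph2 but not that of Htr5b.

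The strain differences were refitted with each mouse left out. For Tph2, the log2 fold change stayed between 1.52 and 1.97 and the limma adjusted p stayed under 0.05 in all 8 refits, at up to 0.0200. Without C57BL/6 replicate 2 it was 1.97 (standard error 0.19), the largest of the 8, with the smallest standard error. For Htr5b, the log2 fold change lay between 1.31 and 1.98, and the adjusted p stayed under 0.05 only without C57BL/6 replicate 2, at 0.0113, and without DBA/1 replicate 2, at 0.0185. These are the mice that overlapped between the strains. The limma adjusted p of Htr5b was 0.106 without C57BL/6 replicate 1, 0.0680 without replicate 3 and 0.106 without replicate 4 of that strain. It was 0.0594 without DBA/1 replicate 1, 0.105 without replicate 3 and 0.0867 without replicate 4. The smallest log2 fold change of Htr5b, 1.31, came without C57BL/6 replicate 4, the mouse with the lowest level of this gene.

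**Figure D2:**
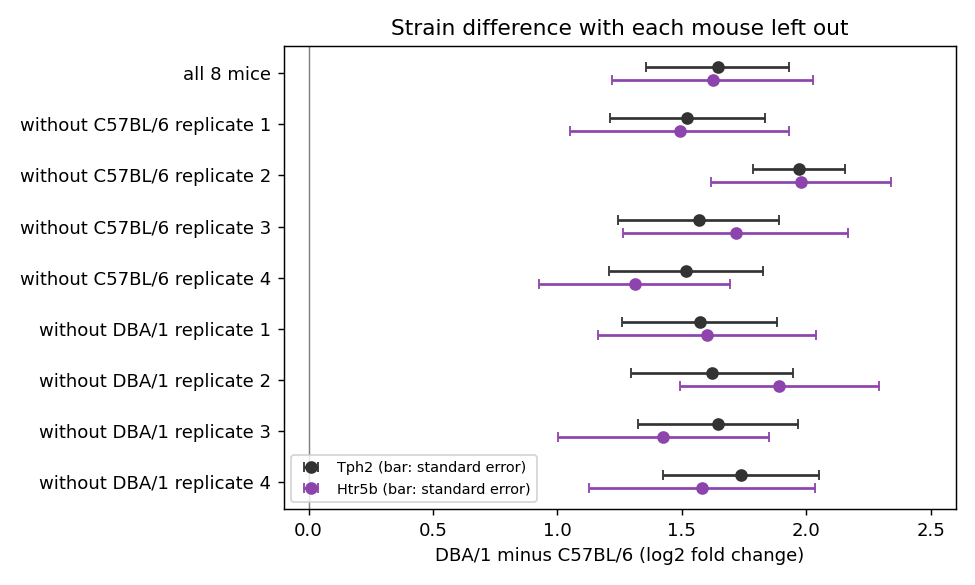
Log2 fold change of Tph2 and Htr5b, DBA/1 minus C57BL/6, with all 8 mice and with each mouse left out; points are limma estimates and bars their standard errors. All estimates are above 0, and both genes reach their largest value, 1.97 and 1.98, without C57BL/6 replicate 2.

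Under other processing, the direction of both genes was kept in every alternative run. When dim probes were not filtered out, the limma adjusted p of Tph2 was 0.0772, and the methods' t-test gave 0.0677 after Benjamini-Hochberg adjustment. For Htr5b these values were 0.276 and 0.217, and under normexp, a background correction that shrinks dim signals, its log2 fold change fell to 1.03, with a limma adjusted p of 0.0457. With the slide column as a block, the limma adjusted p was 0.00636 for Tph2 and 0.0712 for Htr5b, so Htr5b no longer passed the threshold. Within columns 1 to 4, DBA/1 minus C57BL/6 was 2.23, 0.73, 1.87 and 1.74 on the log2 scale for Tph2. For Htr5b it was 2.10, -0.24, 1.94 and 2.70, so the column of both replicates 2 went the other way.

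Whether the genes varied together was examined on the deviation of each mouse from the mean of its strain. No correlation of the levels over the 8 mice is given, because it would mainly reflect the difference in strain means. C57BL/6 replicate 2 deviated by 0.98 for Tph2 and 1.06 for Htr5b, and was the only mouse far above its strain mean in both. Replicates 1 and 4 of C57BL/6 lay below their mean in both genes, and DBA/1 replicate 1 lay above it in both, by 0.22 for Tph2 and 0.08 for Htr5b. The other 4 mice had opposite signs, so the deviations had the same sign in 4 of the 8 mice. Among DBA/1 mice, Tph2 was highest in replicate 1 and lowest in replicate 4, whereas Htr5b was highest in replicate 3 and lowest in replicate 2.

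The correlation of the deviations was r = 0.65 over the 8 mice, with p = 0.177 in an exact two-sided permutation test within the strains. The rank correlation was rho = 0.55, with p = 0.236 in the same exact permutation test. It was the only relation tested in this way, so no adjustment was made. Without the 2 mice whose Tph2 deviations lay farthest from the median, which were C57BL/6 replicate 2 and DBA/1 replicate 1, r was -0.0031, and without C57BL/6 replicate 2 alone it was 0.04. With each of the other mice left out, r lay between 0.58 and 0.80. The relation thus rested on C57BL/6 replicate 2. Of all probes measured on all arrays, 10.4% had deviations at least as highly correlated with those of Tph2 as Htr5b, and 8.01% had deviations at least as highly correlated with those of Htr5b as Tph2.

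**Figure D3:**
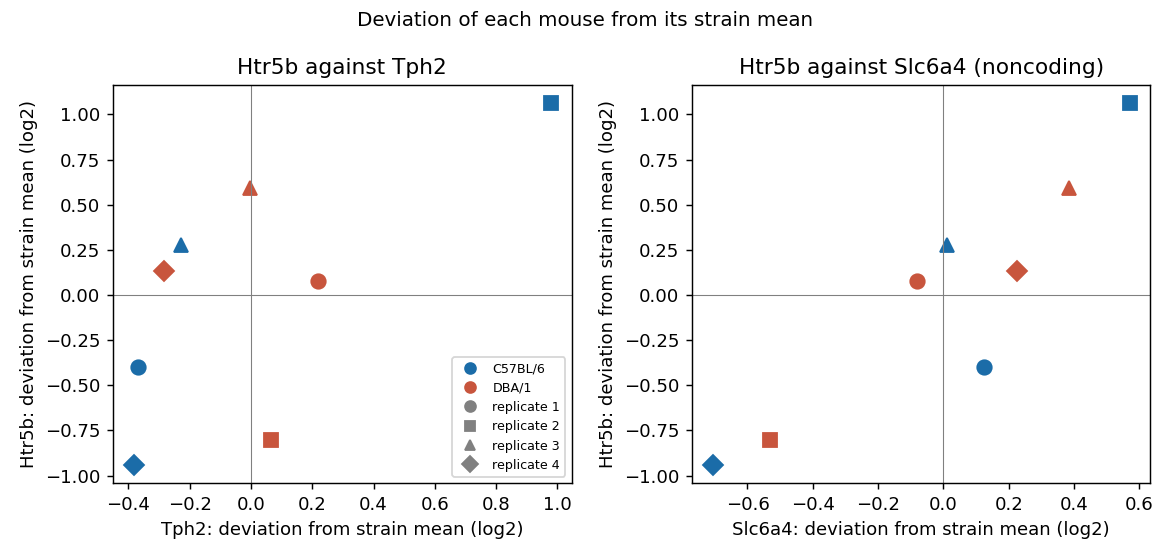
Deviation of each mouse from its strain mean (log2), for Htr5b on the vertical axis against Tph2 (left) and the noncoding Slc6a4 transcript (right) on the horizontal axis; color gives the strain and marker the replicate. On the left, C57BL/6 replicate 2 stands alone at the upper right and the other 7 mice show no common trend. On the right the mice lie along a rising line. Of the C57BL/6 values of Slc6a4, however, 3 were not well above background and have no order.

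The genes whose deviations were most like those of each member were looked up among 1157 named probes measured on all arrays, over 8 arrays. These probes carry names because the study had listed them as different between the strains, and no p is given. Closest to Tph2 were Crim1 (r = 0.94), AK078946 (r = 0.94), Pex19 (r = 0.94), Gltpd1 (r = 0.93) and Gm12243 (r = 0.91). The Pex19 probe was listed for a noncoding transcript, not for the coding mRNA. All 5 were lower in DBA/1 mice, opposite to Tph2. In every DBA/1 mouse Crim1, AK078946 and Gm12243 had the floor value, so their likeness to Tph2 comes from the C57BL/6 mice alone. Gltpd1 had the floor value in every DBA/1 mouse except replicate 1, where it was 2.36. Among C57BL/6 mice all 5 were highest in replicate 2, as Tph2 was, so these correlations lean on the same mouse.

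Closest to Htr5b was another serotonin gene, Slc6a4, which encodes the transporter that takes serotonin back up into the neuron (r = 0.91). Its listed probe was designed for ENSMUST00000137819, a noncoding transcript on chromosome 11 from 77018177 to 77022346 of GRCm38 that overlaps exons of Slc6a4 in the same direction. The gene itself runs from 76998597 to 77032343, and whether the probe also reads the coding mRNA was not tested. Only 0.232% of all probes measured on all arrays were as highly correlated with Htr5b. With each mouse left out in turn, r stayed between 0.86 and 0.99. Of the C57BL/6 mice, however, only replicate 2 had a Slc6a4 signal well above background, so deviations of that strain include background readings. Every refit with a mouse left out still held such readings. The range therefore cannot show whether the relation holds without them. With Tph2, the correlation of the Slc6a4 transcript was 0.48, and without C57BL/6 replicate 2 it was -0.23. Next to Slc6a4 came 2610305D13Rik (r = 0.91), AK085768 (r = 0.90), D130009I18Rik (r = 0.89) and the sodium channel gene Scn3a (r = 0.88). AK085768 was higher in DBA/1 mice, 2610305D13Rik and Scn3a were lower, and D130009I18Rik missed the threshold (log2 fold change 1.15, limma adjusted p = 0.105).

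**Figure D4:**
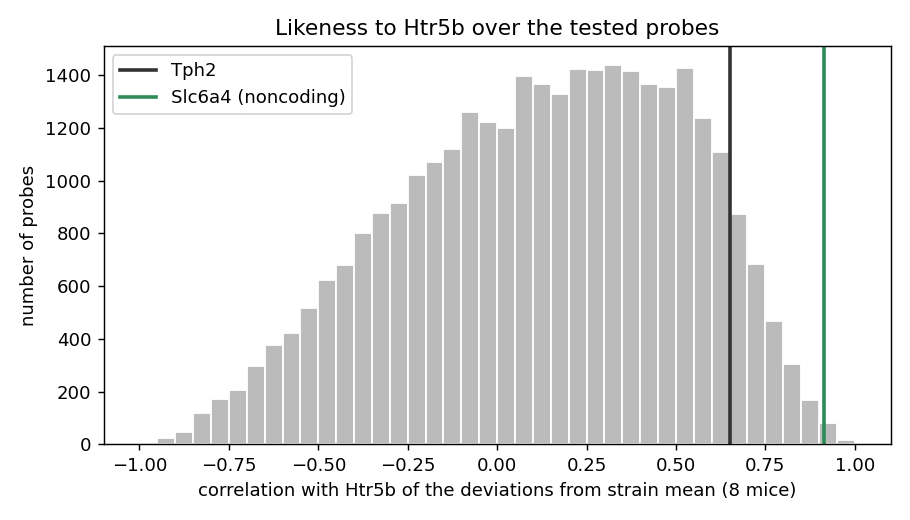
Number of probes (vertical axis) by the correlation of their deviations from the strain mean with those of Htr5b over 8 mice (horizontal axis), for all probes that were tested and measured on all arrays. Lines mark Tph2 at 0.65, inside the bulk of the probes, and the noncoding Slc6a4 transcript at 0.91, near the upper end.

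The noncoding Slc6a4 transcript was dim. Its normalized log2 signal was 4.59, 4.14, 5.05 and 4.89 in DBA/1 replicates 1 to 4, and 3.21, 3.65, 3.10 and 2.38 in C57BL/6 replicates 1 to 4. It was well above background in all 4 DBA/1 mice, which fell in the same order as for Htr5b. In C57BL/6 mice it was so in replicate 2 alone, and the values of the other 3 have no order. The measured values of the strains did not overlap. With DBA/1 higher, this held for 4.20% of the probes tested and measured on all arrays. Means were 4.66 ± 0.40 (SD, n = 4) in DBA/1 and 3.08 ± 0.53 (SD, n = 4) in C57BL/6 mice. The log2 fold change was 1.58 (standard error 0.28, limma adjusted p = 0.00466). Since 3 of the C57BL/6 values were not well above background, the size of this difference is uncertain. The fold change and its limma adjusted p belong to the measured values, which include background readings.

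The rest of the serotonin system could be followed only where a probe was named by the study's lists of different RNAs. Of 12 genes for serotonin synthesis, transport and breakdown, 3 were named, with 1 probe each: Tph2, Gchfr and the noncoding Slc6a4 transcript. All 3 passed the adjusted criterion with DBA/1 higher, which 0.886% of all tested probes did. Their median log2 fold change was 1.64, against a median of -0.01 over all tested probes. The Slc6a4 and Gchfr probes were well above background on 1 and 0 C57BL/6 arrays, so they met the filter on dim probes through the 4 DBA/1 arrays. Since naming required a difference between the strains, neither the count nor the median is evidence of a direction of the pathway. Of 14 serotonin receptor genes only Htr5b was named, and of 10 transcription factors of serotonin neurons none was. The other members, among them the coding mRNA of Slc6a4, Ddc, Slc18a2 and Fev, were not analysed here.

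Gchfr encodes the feedback regulator of GTP cyclohydrolase, the enzyme that starts the synthesis of the biopterin cofactor of TPH2. Its normalized log2 signal was 4.66, 3.92, 4.83 and 4.56 in DBA/1 replicates 1 to 4. None of the C57BL/6 mice had a signal well above background, and their measured values were 2.51 to 2.86. The gene was therefore at least 2.16-fold higher in DBA/1 mice. It entered the tests through the DBA/1 arrays alone, and the limma adjusted p of 0.000200 belongs to the measured values, not to this bound. For this bound, the signal of Gchfr on each C57BL/6 array was raised to the brightest probe that was not well above background there, which lay between 3.11 and 3.63, before the strain means were compared. The C57BL/6 values of Gchfr have no order, so it was not compared mouse by mouse with Tph2 or Htr5b.

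Markers of other cells could be checked only for the cerebellar list, where 1 of 11 genes was named. Zic1, a transcription factor of cerebellar granule cells and other dorsal neurons, had a log2 signal of 5.14, 5.06, 6.18 and 5.50 in DBA/1 replicates 1 to 4 and of 3.35, 3.68, 3.95 and 4.37 in C57BL/6 replicates 1 to 4. It was well above background in all 4 DBA/1 mice and in 3 of the C57BL/6 mice. The strains did not overlap, with DBA/1 higher, as for 4.20% of the probes tested and measured on all arrays. The log2 fold change was 1.64 (standard error 0.28, limma adjusted p = 0.00384), as large as that of Tph2. In C57BL/6 replicate 2, Zic1 lay 0.21 below the mean of the other 3 mice. Its deviations correlated with those of Tph2 at r = -0.23 and with those of Htr5b at r = 0.14. They include a C57BL/6 value that was not well above background. The part of the dissected region or of its cell types in the strain differences was not tested. No named probe covered the lists for catecholamine, cholinergic and motor neurons, choroid plexus, blood, oligodendrocytes, astrocytes or microglia.

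**Figure D5:**
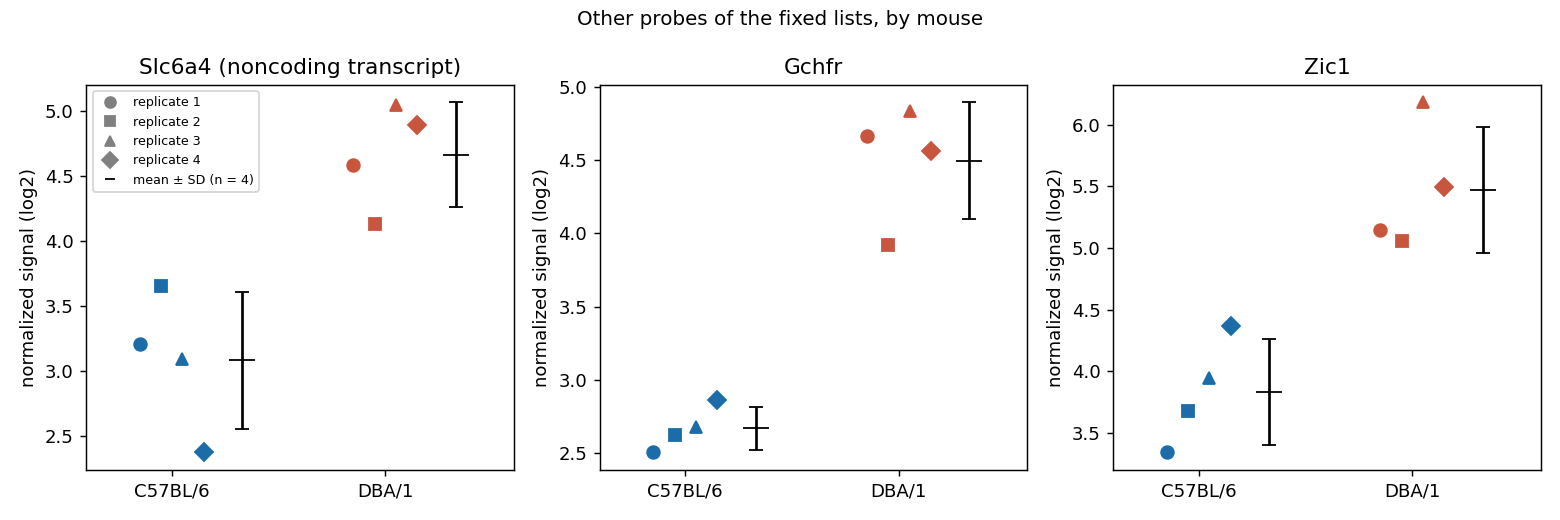
Normalized signal (log2, vertical axis) of the noncoding Slc6a4 transcript, Gchfr and Zic1 in each mouse, with the marker giving the replicate and the bar the mean ± SD of 4 mice. All 3 are higher in every DBA/1 mouse than in any C57BL/6 mouse, as were 4.20% of the probes tested and measured on all arrays. No C57BL/6 value of Gchfr and 1 of Slc6a4, in replicate 2, were well above background.

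Among the other transmitter genes that the study places with Htr5b in the neuroactive ligand-receptor pathway, 7 probes of 6 genes were named, and all were higher in DBA/1 mice. Of these 7, the unadjusted criterion was met by 6 and the adjusted one by 5, against 1.06% and 0.886% of all tested probes with DBA/1 higher, with a median log2 fold change of 1.28. Those past the adjusted criterion were Ptgfr, Gabra2, Cort, Ptafr and 1 of the 2 Grin3a probes. The other Grin3a probe had a log2 fold change of 0.99, under the 2-fold limit, and Pyy had 1.32 with a limma adjusted p of 0.0519. The study named these genes in a pathway drawn from transcripts higher in DBA/1 on the same arrays. Their direction followed from that choice, so the counts and the median are a description only.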

How the data were processed

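Arrays of 8 mice were analysed, 4 of each strain. The deposited scanner files hold spot intensities from Agilent Feature Extraction 11.0.1.1, which subtracted background and detrended within the array. The authors labeled the RNA with random primers and deposited a table of quantile-normalized log2 values as well.

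Here, spots flagged as controls or outliers were dropped, intensities were raised to a floor of 5, and the arrays were quantile-normalized before taking log2. The authors' log2 table differed from these values by a median of 0.04, and by up to 0.27 for the 2 member probes. Probes well above background on at least 4 of 8 arrays were fitted with limma 3.58.1 (lmFit, eBayes) in R 4.3.3, without a block. Permutation tests ran in Python 3.11.15 with scipy 1.17.1, numpy 2.4.6 and pandas 2.3.3. In simulated data for this comparison with 31872 probes, of which 200 were changed, the fit recovered 73% of those changed by 1.5 on the log2 scale and 87% of those changed by 2 at the adjusted criterion. Single genes were compared by exact permutation of the 4 against 4 values. Covariation was tested by permuting mice within strains, in 576 arrangements.

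Gene names came from the study's lists of different lncRNAs and mRNAs, as far as they were used here. Their fold changes and p-values were not used. Positions are those of RefSeq genes on GRCm38.p6, to which accessions linked 424 of the 433 listed mRNA probes, 406 of them with the listed transcript inside the gene. Genes named were the 2 members, listed probes of fixed gene lists, and the 5 named probes most like each member. The members and lists were chosen with earlier results of these data known. Alternatives were 75th percentile scaling, no floor, the authors' table, filters on dim probes, outlier spots kept, normexp on median spot signals (offset 50; mean spot signals were not used here), percentile ranks, the methods' t-test, the replicate number (the slide column) as a block, and each mouse left out. Quantile normalization on the log2 scale and leaving out outlier spots after normalization were added after the data were seen.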

Additional observations from a re-analysis of the deposited data

Results flagged for a closer look

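Tph2 in C57BL/6 mice was noted because 1 of the 4 mice lay far from the others. The gap between C57BL/6 replicate 2, at 10.79, and the next mouse, at 9.59, made up 0.887 of the range of the strain. The same share was 0.891 in the authors' table and 0.867 on the percentile within the array, and 0.420 on log2 intensities not normalized between arrays. Chance alone gives such a gap in about 1 of 20 groups, and 4 groups were examined. Htr5b was also highest in this mouse, but its gap was 0.392 of the range.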

How the results depend on the processing

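Both strain differences kept their direction in all 20 alternatives each. For Tph2, the limma adjusted p stayed under 0.05 in 17 of them, and the estimate lay between 1.57 and 1.71 apart from the mice left out, where it lay between 1.52 and 1.97. The exceptions were the percentile within the array (3.56 points), no filter on dim probes (1.64) and the methods' t-test (1.64). For Htr5b it stayed under 0.05 in 10 of 20. The exceptions were the percentile within the array (11.5 points), no filter on dim probes (1.62), the methods' t-test (1.62), the replicate number, which is the slide column, as a block (1.62, adjusted p = 0.0712) and 6 of the mice left out, in a range of 1.31 to 1.98. The run without a filter covered 60716 probes, and the methods' t-test used no variance shared between probes. Why calls were lost in any of these runs was not tested. The correlation of the deviations missed the threshold in all 16 alternatives, in a range of 0.04 to 0.80 with mice left out and of 0.55 to 0.72 otherwise. Replicate numbers were given in sample order and name no pairs of mice. Deviations of same-numbered mice correlated at 0.38, 0.02, 0.13 and 0.35 across probes, and in column 2 not above 0.1, the limit set for pairing. With the block, 1331 probes met the adjusted criterion, against 1269 without it. At the unadjusted criterion 1467 probes were called, against 392 under normexp and 700 among probes well above background on all arrays; at the adjusted criterion 1269, against 338 and 643. With mice left out, 1424 to 1701 and 1112 to 1402 probes met the criteria. In the methods' t-test 1381 probes met the unadjusted and 889 the adjusted criterion. Dim probes such as those of Slc6a4 and Gchfr are limited by their signal over background.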
